A study of Rattus norvegicus with 18 samples.

Results

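Keratins are the intermediate filament proteins of epithelial cells, and the genes described here are all rat genes named Krt followed by a number, with an optional letter, together with Sprr1a, Perp, Elf3, Gp2, Clca4l and Lad1. There were 53 such genes, 47 keratins and 6 added genes, of 28111 symbols in the retina table, and 32 of them were among the 16680 identifiers named in the RPE/choroid tables. The keratins were taken by name. The 6 added genes were chosen by measured values of these same libraries, since Lad1 was among the largest changes between aged and young retina, Gp2 and Clca4l were among the largest between 8-AG-treated and untreated aged retina, and surface epithelium genes as a group were higher there. The values of the added genes, and of all members in 8-AG-treated against aged retina, are therefore a description, and where the call rule below counts such genes nothing is read from it.

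The study sequenced mRNA from female Fischer 344 rats, an albino strain that loses retinal function with age. It compared young rats (4 months old by the sample labels), aged rats (24 months old, on water) and aged rats given 8-aminoguanine (8-AG), a purine metabolite that inhibits purine nucleoside phosphorylase. Treated rats drank 8-AG in their water from 22 months of age for 8 weeks, at 5 mg/kg/day, and so were also 24 months old. Retina and RPE/choroid (retinal pigment epithelium, RPE, with the vessel layer beneath it) were taken from each group, with 3 libraries per group and tissue and 18 in all. The dissection removed cornea, iris and lens and took the retina before the RPE/choroid was washed from the eye cup, and the low RNA yield of RPE/choroid was handled with a kit that enriches full-length transcripts. The molecule named on the labels is polyA RNA for 15 libraries, whereas the 3 treated retina libraries carry the label total RNA.

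Keratin filaments are built from pairs of 1 type I and 1 type II keratin, and the pair in use tells what kind of epithelium a cell belongs to. Krt8 and Krt18 are the pair of simple, single-layered epithelia. Krt5 with Krt14 or Krt15 marks the basal layer of stratified epithelia, Krt4 with Krt13 the upper layers of wet mucosal surfaces such as conjunctiva, Krt12 the corneal epithelium, and Krt1, Krt2 and Krt10 cornifying skin. Krt6, Krt16 and Krt17 are keratins of activated or wounded epithelium, Krt25 to Krt28 and Krt71 to Krt75 belong mostly to the hair root sheath and Krt31 to Krt40 and Krt81 to Krt87 to the hair shaft. Of the added genes, Sprr1a is a cross-linked protein of the cornified envelope, Perp a desmosomal membrane protein, Elf3 an epithelial ETS transcription factor, Lad1 (ladinin) an anchoring protein of the epithelial basement membrane, Gp2 a membrane glycoprotein of secretory and mucosal epithelium, and Clca4l a member of the calcium-activated chloride channel regulator family.

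Of the 53 members, 40 had a promoter sequence (250 bases before to 50 after the transcription start) in RefSeq's table of build GRCr8. Those of 4 members are shown because these genes separate the patterns described below: Krt4 (mucosal, high in 8-AG-treated RPE/choroid libraries 1 and 3), Krt12 (corneal, high in library 3), Krt76 (a neighbour of Krt4 in the type II cluster on chromosome 7, called in neither tissue with 8-AG against aged rats) and Sprr1a (cornified envelope). Krt4 lies at chr7:134930664-134930963, Krt76 at chr7:134904113-134904412, Krt12 at chr10:84874216-84874515 in the type I cluster on chromosome 10, and Sprr1a at chr2:180752576-180752875, all on the minus strand. Capitals mark matches, on either strand, to the TATA box letters TATAAA, the AP-1 letters TGANTCA, the AP-2 letters GCCNNNGGC or the Grainyhead letters AACCNGTT.
Krt4: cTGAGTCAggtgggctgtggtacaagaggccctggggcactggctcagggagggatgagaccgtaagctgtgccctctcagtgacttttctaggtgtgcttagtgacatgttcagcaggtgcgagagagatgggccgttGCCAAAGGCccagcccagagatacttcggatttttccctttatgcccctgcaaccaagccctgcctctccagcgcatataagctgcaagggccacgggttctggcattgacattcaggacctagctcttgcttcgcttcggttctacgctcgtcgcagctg
Krt76: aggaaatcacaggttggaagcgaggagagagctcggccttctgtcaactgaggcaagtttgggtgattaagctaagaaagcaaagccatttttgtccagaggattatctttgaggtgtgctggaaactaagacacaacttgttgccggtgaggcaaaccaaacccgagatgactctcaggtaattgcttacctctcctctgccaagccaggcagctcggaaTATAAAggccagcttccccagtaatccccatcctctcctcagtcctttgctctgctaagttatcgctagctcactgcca
Krt12: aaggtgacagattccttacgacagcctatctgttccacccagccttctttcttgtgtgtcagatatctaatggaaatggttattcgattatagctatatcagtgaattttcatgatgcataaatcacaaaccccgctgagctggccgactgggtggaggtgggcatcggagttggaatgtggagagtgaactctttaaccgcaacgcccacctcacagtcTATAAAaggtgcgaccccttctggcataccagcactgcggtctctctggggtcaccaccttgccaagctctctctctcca
Sprr1a: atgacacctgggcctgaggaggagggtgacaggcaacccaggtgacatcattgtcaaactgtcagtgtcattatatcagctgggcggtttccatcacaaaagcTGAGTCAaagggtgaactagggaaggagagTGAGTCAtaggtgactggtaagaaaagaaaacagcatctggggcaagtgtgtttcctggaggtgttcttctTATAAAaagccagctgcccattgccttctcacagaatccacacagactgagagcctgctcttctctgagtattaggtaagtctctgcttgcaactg
The matches did not overlap one another in these 4 sequences. TATAAA was present in 22 of the 40 member promoters, 55% against 14.2% of all 33469 promoters in the table. TGANTCA was present in 5 of 40 (12.5%, against 7.33% of all), GCCNNNGGC in 7 of 40 (17.5%, against 15.1%) and AACCNGTT in 0 of 40 (against 2.1%). Krt76 and Krt12 each held TATAAA, 29 and 30 bases before the start. Sprr1a held TATAAA once and TGANTCA at 2 places, and Krt4 held no TATAAA but 1 match each to TGANTCA and GCCNNNGGC. A match describes letters in the window and is not evidence of a bound site.

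The retina libraries held 12283458 to 15644346 counts and the RPE/choroid libraries 28573828 to 48203050, so 1 CPM (counts per 1000000 counts of a library) stands for 12.3 to 15.6 reads in retina and 28.6 to 48.2 in RPE/choroid. Levels are CPM on each library's TMM-corrected total, and the tissues were normalized apart. An identifier was found for 35 members. The other 18 had at most 8 reads in sum over the 9 retina libraries, and 9 of the 53 members had no read in any of them. RPE/choroid libraries stood apart in their tissue markers: 13 rod genes summed to 621 to 56368 CPM, 11 striated muscle genes to 26.8 to 64066 CPM, and 16 RPE genes to 8910 to 23291 CPM. 8-AG-treated library 1 was the highest for rod and muscle genes and the lowest for RPE genes. In bulk tissue, fewer cells of a type and less RNA per cell cannot be told apart. A gene was called where its fold change was over 1.5 and its unadjusted P under 0.05 in edgeR's quasi-likelihood test, and an exact permutation test of 3 libraries against 3 could not give a p below 0.1.

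**Figure D1:**
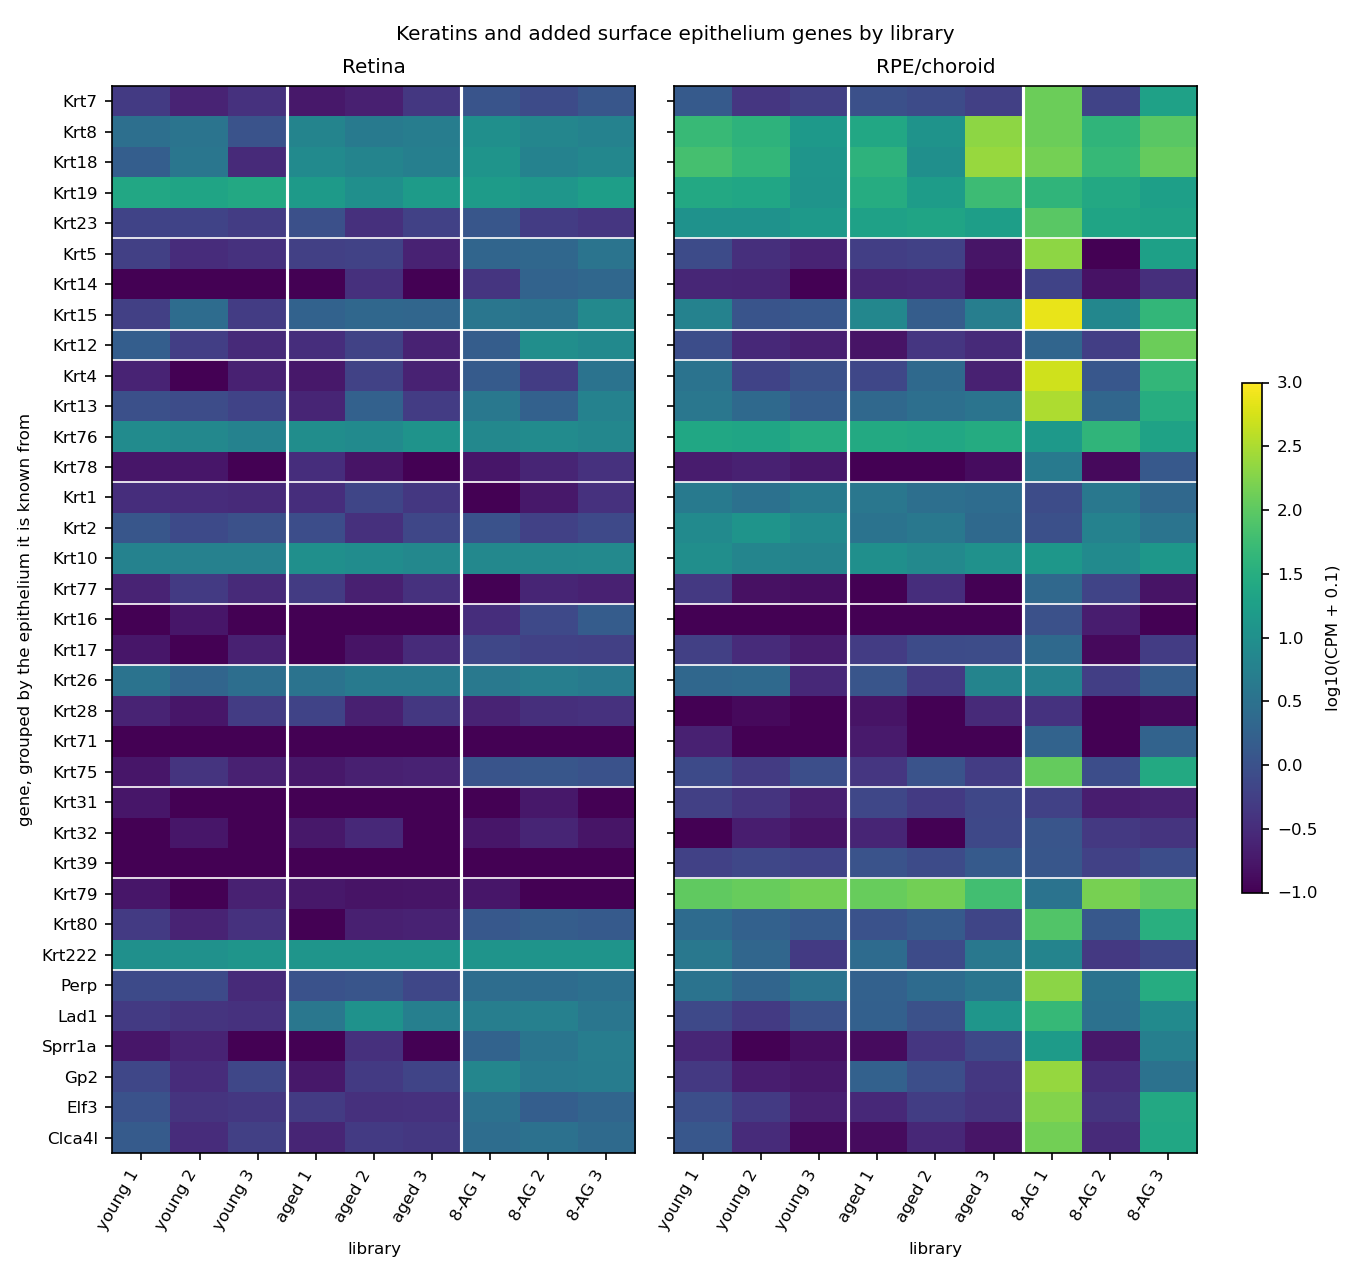
Level of the 35 members with an identifier in each of the 9 libraries of retina (left) and RPE/choroid (right), as log10(CPM + 0.1) in colour, with white lines between groups and between kinds of epithelium. In RPE/choroid the columns of 8-AG-treated libraries 1 and 3 are brighter than all others for Krt4, Krt5, Krt7, Krt13, Krt15, Krt75, Krt80 and the added genes Perp, Sprr1a, Elf3 and Clca4l, and that of library 2 is not, while in retina the same genes are faintly brighter in the 3 8-AG-treated columns, with Krt4 of treated library 2 below aged library 2 and Krt13 beside it.

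Retina expressed keratins at a low level. The 29 keratins with an identifier summed to 63.4, 60.5 and 57.1 CPM in young, 69.8, 61.2 and 66.5 CPM in aged and 86.2, 82.1 and 97.5 CPM in 8-AG-treated retina. The sum in each 8-AG-treated library lay above that in every young and aged library. The highest keratin was Krt19, a small type I keratin of simple epithelia, in 8 of the 9 libraries, with Krt222, a keratin-like protein, first in aged library 2. From 5 to 9 of the 29 keratins reached 1 CPM in each young and aged library, and 14 to 16 did in the 8-AG-treated libraries.

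With age, the simple epithelial keratins Krt19 and Krt8 of the retina moved in different directions. Lad1 is counted below but was chosen for this change. Of 53 members, 11 passed the expression filter in aged against young retina; 3 were called higher (Lad1, Krt10 and Krt8), where 6.45% of the 14588 genes tested were, and 1 lower (Krt19), where 2.39% were. Krt19 was at 24.8, 21.7 and 25.4 CPM in young rats and 15.1, 9.57 and 15.6 CPM in aged retina. The groups did not overlap, and Krt19 fell with a change of -0.84 (standard error 0.18) on the log2 scale and an adjusted p of 0.016 by edgeR's quasi-likelihood test with Benjamini-Hochberg adjustment over all genes tested. Krt10, a keratin of cornifying skin, was at 5.86, 5.72 and 5.54 CPM in young rats and 9.75, 8.87 and 7.26 CPM in aged retina. It rose with a change of 0.59 (standard error 0.15) on the log2 scale and an edgeR adjusted p of 0.0283, again without overlap.

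Krt8 and Krt18, the simple epithelial pair, were both higher in aged retina. Krt8 was at 2.77, 3.31 and 0.946 CPM in young rats and 6.16, 4.27 and 4.91 CPM in aged libraries, and Krt18 at 1.46, 3.61 and 0.203 CPM in young rats and 8.19, 6.31 and 5.32 CPM in aged libraries. Neither gene's groups overlapped, and young library 3 was the lowest for both genes. Krt8 was called, with a change of 1.13 (standard error 0.39) on the log2 scale and an edgeR adjusted p of 0.0932. Krt18 was not, at 1.92 (standard error 0.76), with an unadjusted P of 0.052 and an edgeR adjusted p of 0.174. Young libraries differed in lens transcripts too: 17 lens genes summed to 3117, 6999 and 178 CPM in young rats and 25.2, 19.3 and 20.6 CPM in aged retina, while the 13 rod genes summed to 59817, 54957 and 59163 CPM in young rats and 34556, 36110.5 and 39220.4 CPM in aged retina, without overlap and with 8 of 13 called lower. Of 16 RPE genes 12 had a positive change, with a median of 0.32 on the log2 scale. The part of lens, rod or RPE tissue in these keratin values was not tested.

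Lad1 was the member with the highest change with age. It was at 0.385, 0.301 and 0.27 CPM in young, 3.75, 10.8 and 5.32 CPM in aged and 5.1, 5.38 and 3.61 CPM in 8-AG-treated retina. All 6 aged libraries, treated or not, were above every young library, and the log2 fold change of aged against young was 4.36 (standard error 0.52). The other 5 added genes were at 0 to 1.31 CPM in every young and aged retina library and did not pass the filter in that comparison. Krt222 was at 10.8 ± 0.921 CPM in young rats and 12.2 ± 0.0465 CPM in aged retina (mean ± SD, n = 3). Krt76, a palate and mucosal keratin, was at 7.12 ± 1.29 CPM in young rats and 9.5 ± 1.55 CPM in aged retina on the same terms, with overlapping groups. Krt26, a root sheath keratin, was at 3.24, 1.88 and 2.7 CPM in young rats and 3.2, 4.21 and 4.28 CPM in aged retina, with overlapping groups, and Krt15 overlapped as well. Krt10 lost its call without young library 3 (log2 fold change 0.57), aged library 1 (0.50) or aged library 2 (0.57), since it then fell under the fold limit or the P limit, and Krt8 lost it without aged library 1 (0.97).

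In 8-AG-treated retina 6 keratins of basal, corneal, mucosal and other epithelia were higher than in aged retina, all at a low level. Of 53 members, 19 passed the filter in this comparison and 11 were higher by the call rule, 6 keratins and 5 added genes, where 0.526% of the 14631 genes tested were; 0 were lower, where 0.431% of all genes were. These genes were chosen with this contrast in view and several passed the filter only through the 8-AG-treated libraries, so nothing is read from the count. The 6 keratins were Krt5, Krt12, Krt13, Krt15, Krt75 and Krt80. The 3 treated retina libraries are those with the label total RNA, although the protocol on the labels describes poly-A capture for the retina libraries of all groups, and treatment and this label cannot be told apart in this comparison.

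Krt12, the corneal keratin, was at 1.46, 0.452 and 0.203 CPM in young, 0.234, 0.51 and 0.138 CPM in aged and 1.39, 9.29 and 7.95 CPM in 8-AG-treated retina, or 18, 114 and 119 reads in the last. Treated libraries 2 and 3 stood above all others, while treated library 1 was within the young range. The log2 fold change against aged retina was 4.33 (standard error 0.89). Krt5, of the basal layer, was at 0.462, 0.226 and 0.27 CPM in young, 0.468, 0.51 and 0.138 CPM in aged and 1.93, 2.04 and 3.34 CPM in treated retina, a change of 2.69 (standard error 0.44) on the log2 scale without overlap. Krt15, which stands in for Krt14 in slow-cycling basal cells, was at 0.462, 2.48 and 0.405 CPM in young, 1.72, 2.1 and 2.0 CPM in aged and 3.63, 3.18 and 7.49 CPM in treated libraries, and its treated libraries too were above all others.

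Krt13, of wet mucosal surfaces, was at 0.848, 0.753 and 0.541 CPM in young, 0.156, 1.66 and 0.415 CPM in aged and 3.94, 1.63 and 5.75 CPM in 8-AG-treated retina. Treated library 2 lay just below aged library 2, and the log2 fold change was 2.29 (standard error 0.76), which was no longer called without aged library 3 (1.99) or without treated library 1 (2.26) or 3 (1.85). Its partner Krt4 was at 0.078, 0.51 and 0.138 CPM in aged and 1.31, 0.408 and 3.21 CPM in treated retina and did not pass the filter. Krt80, found in many epithelia, was at 0, 0.128 and 0.138 CPM in aged and 1.16, 1.39 and 1.27 CPM in treated retina, and Krt75, of the hair companion layer, at 0.078, 0.128 and 0.138 CPM in aged and 1.0, 1.06 and 0.936 CPM in treated libraries. Neither gene's groups overlapped, with log2 fold changes of 3.65 (standard error 0.55) and 3.00 (standard error 0.45).

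Krt14, Krt16, Krt17 and Krt7 also had a higher CPM in every treated library than in any aged one, on so few reads that none passed the filter. Krt14 had 0, 0 and 0 reads in young, 0, 4 and 0 in aged and 4, 22 and 31 in 8-AG-treated retina. Krt16 had 0, 0 and 0 reads in aged and 3, 8 and 20 in treated libraries. Krt14, Krt16 and Krt17 are close paralogs that share long stretches of sequence, so reads may have been split among them. Of the keratins at 1 CPM or more in aged retina, 7 were not called in either direction. Their log2 fold change was -0.07 (standard error 0.11) for Krt222, -0.33 (standard error 0.16) for Krt76, -0.23 (standard error 0.15) for Krt10, 0.19 (standard error 0.20) for Krt26, 0.18 (standard error 0.20) for Krt19, 0.30 (standard error 0.28) for Krt18 and 0.55 (standard error 0.23) for Krt8.

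Of the added genes, Gp2 was at 0.616, 0.226 and 0.608 CPM in young, 0.078, 0.383 and 0.553 CPM in aged and 6.64, 4.24 and 4.75 CPM in 8-AG-treated retina. Sprr1a was at 0.0771, 0.151 and 0 CPM in young, 0, 0.255 and 0 CPM in aged and 1.78, 3.51 and 4.88 CPM in treated libraries. Clca4l was at 1.31, 0.226 and 0.473 CPM in young, 0.156, 0.383 and 0.346 CPM in aged and 2.55, 3.02 and 2.27 CPM in treated libraries. These 3 genes were near or under 1 CPM in all untreated libraries. Elf3 was at 0.925, 0.301 and 0.338 CPM in young, 0.39, 0.255 and 0.276 CPM in aged and 3.01, 1.47 and 1.94 CPM in treated libraries. Perp was at 0.694, 0.678 and 0.203 CPM in young, 0.936, 1.02 and 0.622 CPM in aged and 2.55, 2.53 and 2.87 CPM in treated libraries. For these 5 genes every treated library was above every young and aged library. Their log2 fold changes against aged retina were 3.87 (standard error 0.42), 5.07 (standard error 0.78), 3.07 (standard error 0.36), 2.78 (standard error 0.41) and 1.61 (standard error 0.28). The Sprr1a value rests on the few reads of aged library 2, the only aged library with any, and was 8.52 without it, which then depends on the prior count of the fit and is no bound. Lad1 was the exception, at -0.52 (standard error 0.39), with overlapping groups.

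**Figure D2:**
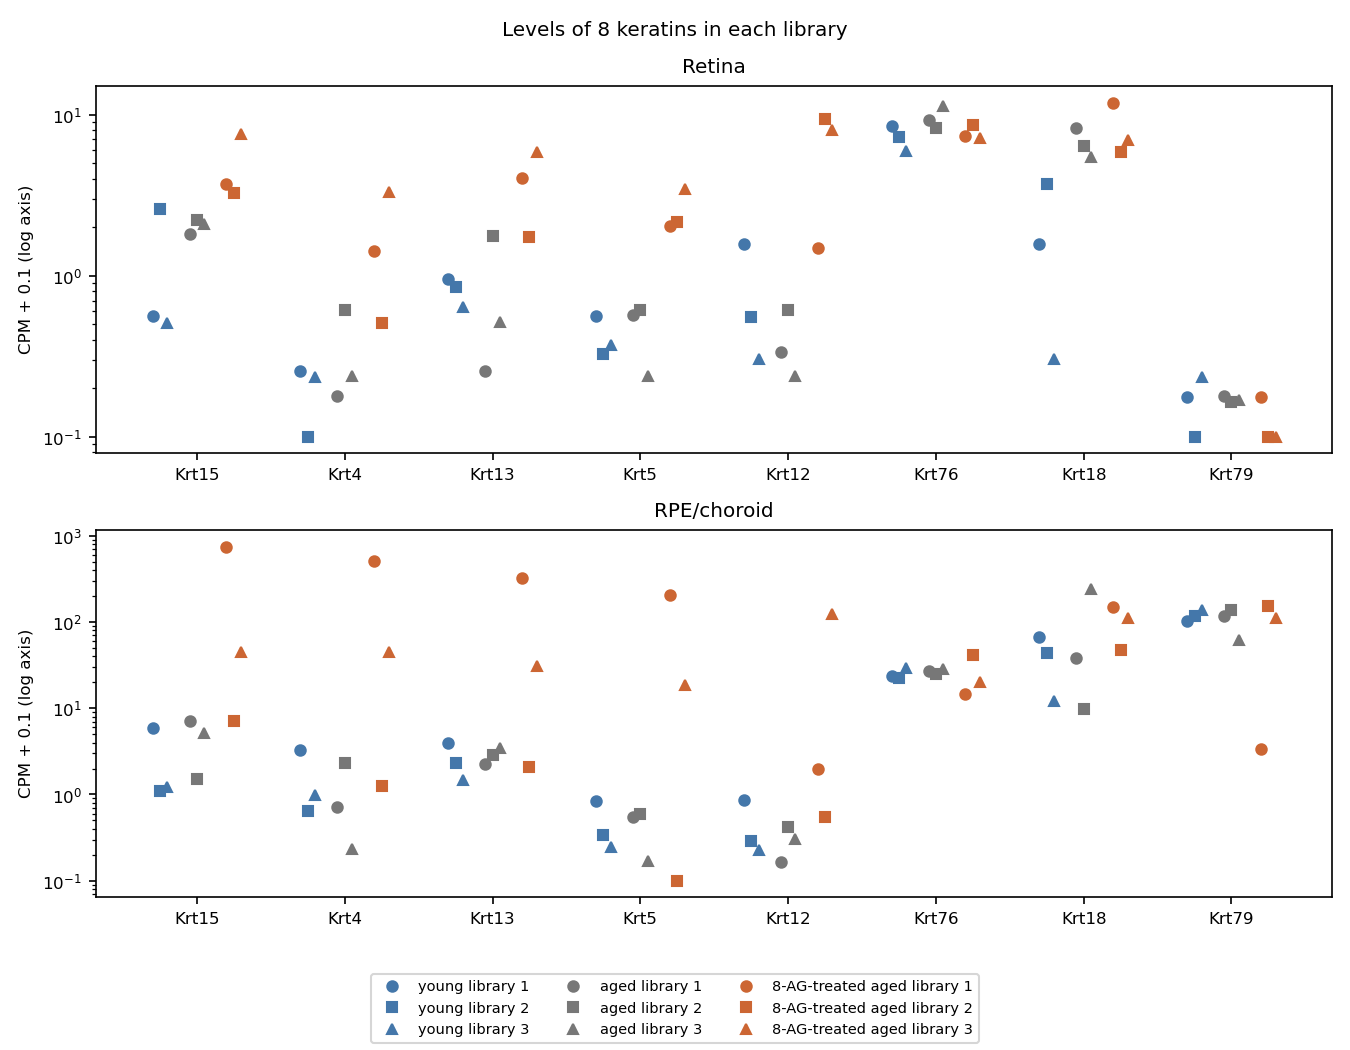
CPM + 0.1 on a log axis of 8 keratins in retina (top) and RPE/choroid (bottom), 1 point per library, with colour for the group and shape for the library number. In RPE/choroid, Krt15, Krt4, Krt13 and Krt5 of 8-AG-treated libraries 1 and 3 lie above every other library, Krt12 is high in library 3 alone, and treated library 2 is within or below the untreated range except for Krt76 and Krt79, where it is the highest.

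Some desmosome and mucosal genes outside the member rule were also higher in treated retina, while most genes of the epithelial adhesion and hemidesmosome lists were not called. The lists were chosen with earlier results of these data known and some of their genes, Muc4 among them, were near or under 1 CPM in aged retina, so their counts are a description. Among 8 desmosome genes that passed the filter, 4 were called higher and 0 lower against aged retina, where 0.526% and 0.431% of all genes tested were, with a median log2 change of 0.66 beside -0.003 over all genes. They included periplakin (Ppl), at 2.42, 2.3 and 1.87 CPM in aged and 15.1, 6.2 and 6.42 CPM in treated retina, envoplakin (Evpl) at 1.63 (standard error 0.36) and desmoplakin (Dsp) at 1.42 (standard error 0.42) on the log2 scale. Of 5 mucosal and secretory genes tested, 3 were called higher: the mucin Muc4, at 0.234, 0.829 and 0.207 CPM in aged and 6.64, 6.44 and 9.02 CPM in treated retina, Fcgbp and Aqp5. Of 12 epithelial adhesion genes tested 0 were called, of 10 hemidesmosome genes 1 was higher, Col17a1, and of 5 cornified envelope genes 1 was, Scel. The cornified envelope list summed to 8.9, 6.7 and 8.16 CPM in aged and 10.7, 10.8 and 12.7 CPM in treated retina, without overlap. The mucosal and secretory list summed to 14, 13.8 and 12.8 CPM in aged and 30.3, 25.5 and 27 CPM in treated retina, and Tff3 was at 0 in all treated libraries. Corneal epithelium genes summed to 8.25, 7.38 and 6.15 CPM in young, 4.99, 4.85 and 3.8 CPM in aged and 48.9, 10.2 and 9.16 CPM in treated retina, and 1, 0 and 0 of the 10 were at 0 in every library of those groups. In treated library 1, 40.5 CPM of that sum was Aldh3a1, and the same library held 1911 CPM of lens transcripts against 21 and 25.1 CPM in the other treated libraries. Of 15 RPE genes tested in retina 0 were called and 14 had a positive change, with a median of 0.61 on the log2 scale, and of 5 corneal stroma genes 0 were called and 5 had a positive change, with a median of 0.40. The summed RPE genes overlapped, at 1184, 1104 and 1151 CPM in aged and 1399, 1118 and 1302 CPM in treated retina. The part of corneal, conjunctival, lens or RPE tissue in the keratin values was not tested.

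The RPE/choroid held more keratin transcript than retina, each on its own scale, with another leading keratin. The 29 keratins summed to 329, 290.1 and 246 CPM in young, 290.2, 251 and 651 CPM in aged and 2579, 363 and 744 CPM in 8-AG-treated RPE/choroid. The highest keratin was Krt79, a keratin of skin glands and hair infundibulum, in 6 of the 9 libraries. It was at 104, 117 and 139 CPM in young, 116, 139.5 and 61 CPM in aged and 3.3, 152 and 111 CPM in treated RPE/choroid. Treated library 1 was far below all others for Krt79, as it was lowest for the summed RPE genes. The 3 libraries with another first keratin were aged library 3 (Krt18), treated library 1 (Krt15) and treated library 3 (Krt12).

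Krt76 was at 23.7, 22.5 and 29.6 CPM in young, 26.9, 24.7 and 28.5 CPM in aged and 14.4, 41.2 and 20.2 CPM in treated RPE/choroid, with the lowest and the highest value both in the treated group. Krt8 and Krt18 varied widely within each group. Krt18 was at 66.9, 43.7 and 11.9 CPM in young, 38.3, 9.72 and 239 CPM in aged and 148, 47.4 and 113 CPM in treated libraries, and Krt8 at 49.2, 38.8 and 14.2 CPM in young, 24.6, 11.3 and 211 CPM in aged and 125, 41.9 and 93.5 CPM in treated libraries. The 9 libraries had the same order for both genes, from aged library 2 as the lowest to aged library 3 as the highest. Krt19 was at 25.5, 23.6 and 11.8 CPM in young, 29.8, 16.4 and 54.7 CPM in aged and 41.6, 25.9 and 17.9 CPM in treated libraries, and its groups overlapped.

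Aging changed few members in RPE/choroid. Libraries 1 and 2 of the young group share a label number, as do those of the aged group, and each pair may come from 1 rat. Of 53 members, 25 passed the filter; 3 were called higher in aged libraries (Gp2, Lad1 and Krt23), where 0.717% of the 16047 genes tested were, and 1 lower (Krt2), where 0.636% were. At an adjusted p under 0.05 there were 0 members by edgeR, with 4 at an unadjusted P under 0.05, and 1 by DESeq2, Krt2. Krt2, of cornifying skin, was at 8.07, 11.7 and 7.95 CPM in young rats and 3.23, 3.92 and 2.19 CPM in aged RPE/choroid, a change of -1.57 (standard error 0.32) on the log2 scale without overlap. Krt23, a type I keratin of glandular epithelium, was at 10.8, 10.8 and 13.9 CPM in young rats and 19.4, 21.5 and 17.6 CPM in aged libraries, a change of 0.71 (standard error 0.18) on the log2 scale, again without overlap. Lad1 was at 0.667, 0.378 and 0.878 CPM in young rats and 1.58, 0.884 and 12.4 CPM in aged libraries, and Gp2 at 0.367, 0.108 and 0.0836 CPM in young rats and 1.68, 0.825 and 0.338 CPM in aged libraries. The log2 fold change of Lad1 was 2.91 with all libraries and 0.94 without aged library 3, and that of Gp2 was 2.38 and 1.66 without aged library 1. Without young library 2 or without young library 3 the number called fell to 2, as it did with libraries sharing a label number summed, where Krt2 was lower and Sprr1a higher. With all 3 groups in one fit 0 members were called higher and 1 lower.

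The 8-AG-treated RPE/choroid libraries did not resemble one another. Treated library 1 held the most Krt4, Krt5, Krt13 and Krt15 but little Krt12, library 3 held less of those 4 keratins and the most Krt12, and library 2 was within or near the untreated range for all 5. The basal keratin Krt15 was at 747, 6.97 and 44.6 CPM in treated libraries 1, 2 and 3, against 7.03, 1.41 and 5.1 CPM in aged and 5.77, 0.998 and 1.11 CPM in young libraries. Krt5 was at 206, 0 and 18.4 CPM in treated, 0.452, 0.501 and 0.0675 CPM in aged and 0.734, 0.243 and 0.146 CPM in young libraries. Treated library 2 had no read of Krt5 at all. Krt14, the usual partner of Krt5, was at 0.529, 0.0556 and 0.24 CPM in the treated libraries, or 17, 2 and 11 reads, and at 0 to 0.177 CPM in the 6 untreated ones.

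The mucosal pair followed the same order of libraries. Krt4 was at 509, 1.14 and 44.3 CPM in treated libraries 1, 2 and 3, 0.613, 2.24 and 0.135 CPM in aged and 3.2, 0.539 and 0.878 CPM in young RPE/choroid. Krt13 was at 322, 2.0 and 31.2 CPM in treated, 2.13, 2.8 and 3.34 CPM in aged and 3.8, 2.21 and 1.36 CPM in young libraries. Krt7, of ducts and glands, was at 128, 0.528 and 19.4 CPM in treated libraries, Krt75 at 114, 0.778 and 26.8 CPM and Krt80 at 80.8, 1.17 and 33.5 CPM. For these 3 genes the 6 untreated libraries lay between 0.323 and 2.43 CPM. Krt23 was at 95.7, 21.7 and 19.99 CPM, high in library 1 only.

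Krt12 broke this order. It was at 1.9, 0.444 and 125 CPM in treated libraries 1, 2 and 3, 0.0645, 0.324 and 0.203 CPM in aged and 0.767, 0.189 and 0.1255 CPM in young RPE/choroid, so that library 3 held the corneal keratin and library 1, with the most Krt4, Krt5, Krt13 and Krt15, held little of it. Library 3 was also the highest of the treated libraries for Lypd2, at 0.778, 0.111 and 62.7 CPM, but not for the sum of the corneal epithelium list it belongs to, where Anxa8 and Lypd3 were highest in library 1 and Gjb6 in library 2. It was the highest for Aqp5, a water channel of cornea and glands, at 1.18, 0.0278 and 88.4 CPM. Fcgbp, a mucus protein, was higher in library 1 than in library 3, at 343, 0.361 and 3.86 CPM.

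The added genes were highest in treated library 1, and 5 of the 6 were next highest in treated library 3, with Lad1 next highest in aged library 3. Perp was at 202, 3.25 and 30.2 CPM in treated libraries 1, 2 and 3 and at 1.68, 2.39 and 3.44 CPM in aged RPE/choroid. Elf3 was at 0.194, 0.442 and 0.304 CPM in aged and 179.6, 0.306 and 26 CPM in treated libraries, and Gp2 at 1.68, 0.825 and 0.338 CPM in aged and 231, 0.222 and 3.12 CPM in treated libraries. Gp2 was the most uneven of the 6, high in library 1 and near the untreated level in library 3. Clca4l was at 0.0323, 0.177 and 0.0675 CPM in aged and 143, 0.194 and 24 CPM in treated libraries. Sprr1a was at 15.4, 0.0833 and 5.26 CPM in treated and 0.0323, 0.324 and 0.641 CPM in aged libraries, and Lad1 at 1.58, 0.884 and 12.4 CPM in aged and 47.8, 2.97 and 8.14 CPM in treated libraries. Library 2 was within or near the aged range for all 6.

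**Figure D3:**
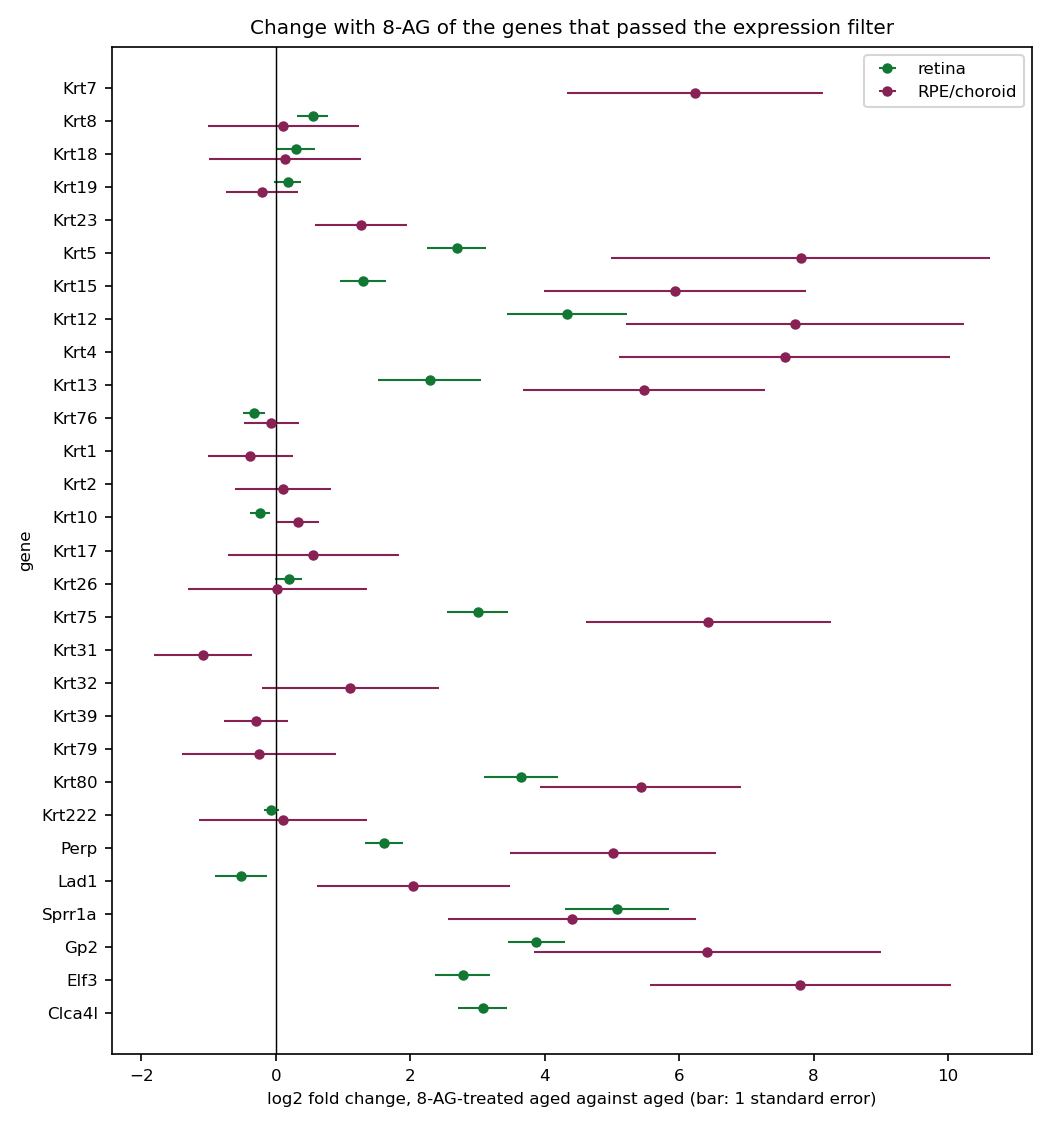
Log2 fold change of 8-AG-treated aged against aged rats, with a bar of 1 standard error on each side, for each member that passed the expression filter, in retina (green) and RPE/choroid (purple). The RPE/choroid bars of Krt4, Krt5 and Krt12 are 2.46 to 2.82 units to a side, and those of Krt5 and Krt12 in retina are 0.44 and 0.89.

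Fitted over all 3 treated libraries, 28 of 53 members passed the filter in 8-AG-treated against aged RPE/choroid and 11 were called higher, where 1.24% of the 16257 genes tested were; 0 were lower, where 0.418% of all genes were. Krt12 was tested here but not in aged against young RPE/choroid, so it passed the filter only through treated libraries, and nothing is read from the count beside the share of all genes. The 11 were Krt4, Krt5, Krt7, Krt12, Krt13, Krt15, Krt75, Krt80, Elf3, Gp2 and Perp. At an adjusted p under 0.05 there were 0 by edgeR, with 11 at an unadjusted P under 0.05, and 8 by DESeq2. The largest keratin changes were those of Krt5 (7.81 (standard error 2.82); unadjusted P 0.034), Krt12 (7.72 (standard error 2.51); 0.023) and Krt4 (7.57 (standard error 2.46); 0.023) on the log2 scale. The changes of Krt79 (-0.25 (standard error 1.14)), Krt76 (-0.07 (standard error 0.40)), Krt18 (0.14 (standard error 1.13)), Krt8 (0.11 (standard error 1.12)) and Krt19 (-0.21 (standard error 0.54)) were each smaller than their standard errors.

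The result depended on which libraries were fitted and how. With libraries sharing a label number summed, 4 members were called higher: Krt75, Krt80, Elf3 and Clca4l. A block on replicate number left 1 called higher. Without treated libraries 1 and 3, an alternative added after the values were seen in which library 2 is assumed to vary as the aged libraries do, 0 members were called higher and 1 lower, Krt17, and without treated library 2 there were 15 called. Without treated library 1, which had the highest keratin, rod and muscle sums, 8 were called higher and 2 lower (Krt31 and Krt222), and the median log2 change of the members tested went from 1.19 to 0.32. Leaving out an aged library also mattered: 2 were called without aged library 1, 6 without aged library 2 and 4 without aged library 3. The log2 fold change of Krt15 was 5.94 with all 3 libraries, 6.50 without library 2 and 0.63 with library 2 alone. For Krt4 the same values were 7.57, 8.13 and 0.19, and for Perp 5.02, 5.57 and 0.38. The Krt12 change went from 7.72 to 2.54 without library 3. Library 2 had no Krt5 read, so its fitted value for Krt5 depends on the fit's prior count and is no bound.

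**Figure D4:**
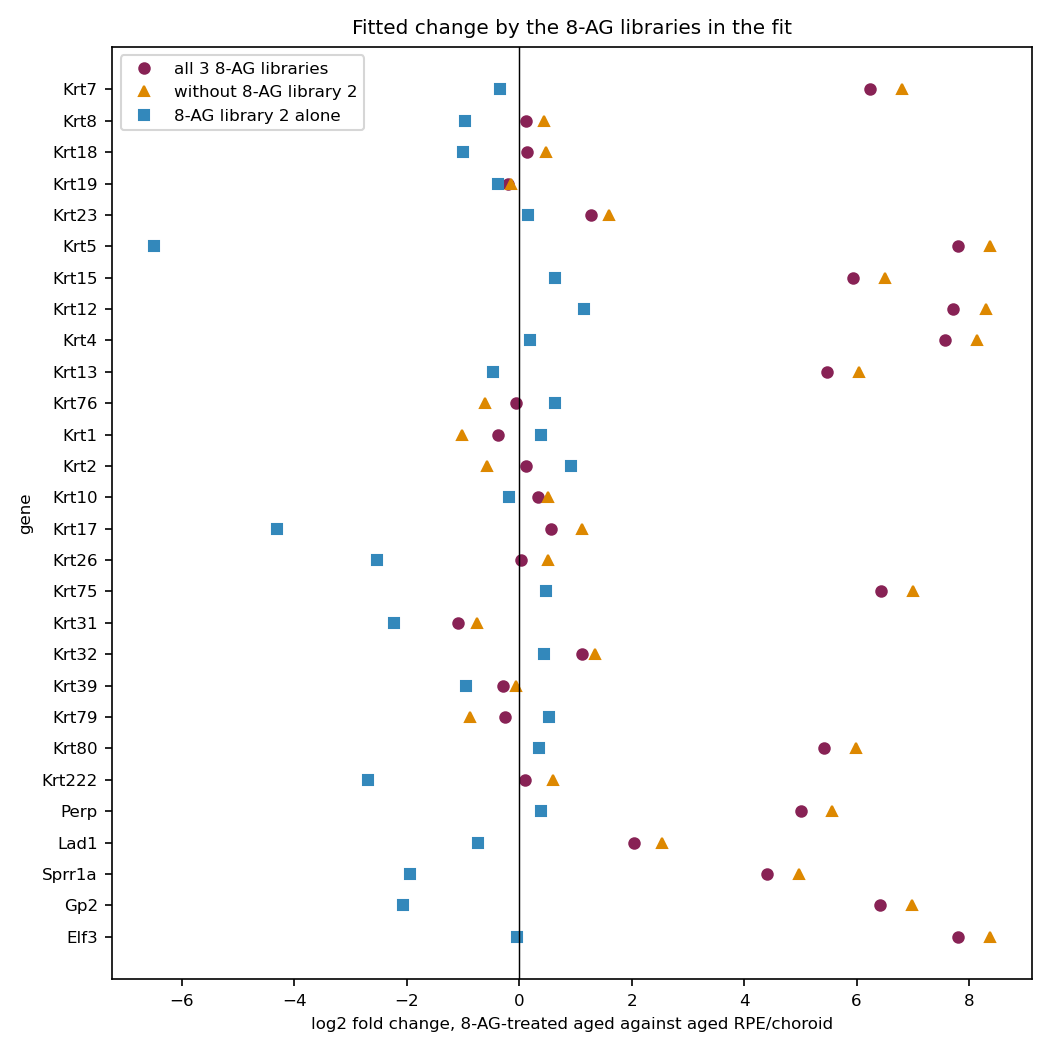
Fitted log2 fold change of 8-AG-treated aged against aged RPE/choroid for each member tested, with all 3 treated libraries (circles), without treated library 2 (triangles) and with treated library 2 alone (squares). Circles and triangles of Krt4, Krt5, Krt7, Krt12, Krt13, Krt15, Krt75, Krt80 and 4 added genes lie beyond 4 while no square lies beyond 2 on that side.

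Of the gene lists outside the member rule, the mucosal and secretory, cornified envelope and epithelial adhesion genes had the same order of treated libraries as a sum, and the desmosome and hemidesmosome genes did not. The cornified envelope genes summed to 64.7, 3.28 and 18.5 CPM and the epithelial adhesion genes to 915, 509 and 719.9 CPM in treated libraries 1, 2 and 3. The desmosome genes summed to 797, 499.7 and 470.1 CPM and the hemidesmosome genes to 356, 686 and 647 CPM in treated libraries 1, 2 and 3. The 12 mucosal and secretory genes summed to 566, 8.81 and 153 CPM in treated libraries 1, 2 and 3, against 8.1 to 9.75 CPM in the 6 untreated ones. Of these, Muc4 was at 123, 0 and 33 CPM and Muc20 at 53.3, 0 and 18.1 CPM in the treated libraries. Of 9 desmosome genes tested, 5 were called higher, where 1.24% of all genes tested were, with a median log2 change of 2.05 beside 0.01 over all genes, and envoplakin (Evpl) was at 112, 0.278 and 24.4 CPM in treated and 0.355, 0.147 and 0.27 CPM in aged libraries. Of 8 corneal epithelium genes tested 6 were called higher, of 21 epithelial adhesion genes 6 were, of 6 mucosal and secretory genes 1 was, Muc20, of 6 cornified envelope genes 1 was, sciellin (Scel), and of 10 hemidesmosome genes 0 were. Among the claudins, the strands of tight junctions, Cldn4 was at 94.1, 0.528 and 11.2 CPM in treated and 0.258, 0.766 and 1.35 CPM in aged libraries. Cldn3, at 34.2, 0.222 and 1.75 CPM in treated libraries, and Cldn23, at 37.3, 0.389 and 13.9 CPM, are named after their values were seen and had the same order.

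The corneal epithelium list as a sum did not separate the libraries, at 426, 473 and 607 CPM in young, 503, 633 and 229.8 CPM in aged and 356, 589 and 558 CPM in treated RPE/choroid, and the gap junction gene Gjb6 made up most of it in all but treated library 1, at 14.2, 455 and 332 CPM in treated libraries. Of its 10 genes, Slurp1 and Psca had no read in any young or aged library. Lens genes summed to 44.3, 846 and 44.5 CPM in young, 32.5, 22.6 and 61 CPM in aged and 282, 54.7 and 278 CPM in treated libraries, with Crygc at 0 in all treated ones. Against aged libraries 8 of the 14 lens genes tested were called higher, where 1.24% of all genes tested were. Against young libraries 0 of 14 were called, with a median log2 change of -0.52. Striated muscle genes summed to 64066, 2860 and 58.3 CPM and rod genes to 56368, 904 and 885 CPM in treated libraries 1, 2 and 3, so that library 1 was high in both and library 3 in neither. The part of cornea, conjunctiva, muscle or lens in the keratin values was not tested.

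**Figure D5:**
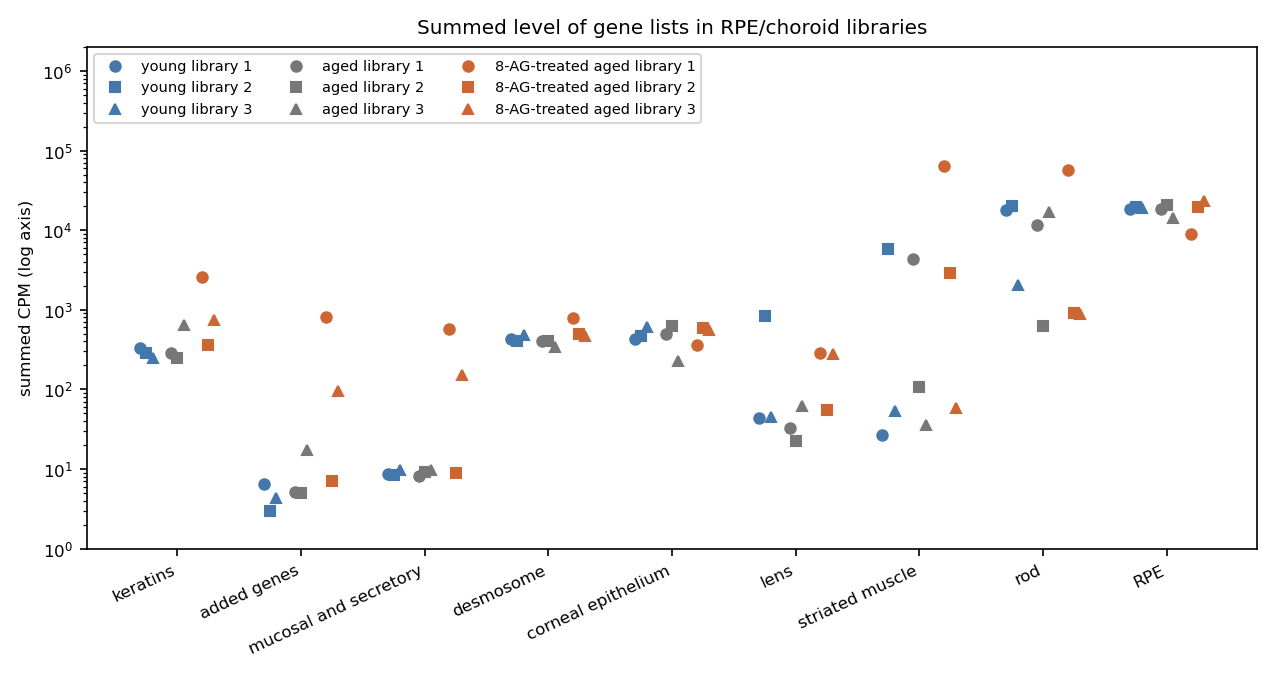
Summed CPM on a log axis of 9 gene lists in the 9 RPE/choroid libraries, with colour for the group and shape for the library number. Treated library 1 (circle) and library 3 (triangle) lie above all others for the added genes and the mucosal and secretory genes, and treated library 1 is highest for striated muscle and rod genes and lowest for RPE genes.

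Against young RPE/choroid, which shares the treated libraries with the comparison above, 29 of 53 members passed the filter and 15 were called higher, where 1.71% of the 16215 genes tested were; 0 were lower, where 0.278% of all genes were. Krt12, Krt32 and Clca4l were not tested in aged against young RPE/choroid and so passed the filter only through treated libraries, and nothing is read from this count either. The 15 were Krt4, Krt5, Krt7, Krt12, Krt13, Krt15, Krt23, Krt32, Krt75, Krt80, Clca4l, Elf3, Gp2, Lad1 and Perp, with 0 at an adjusted p under 0.05 by edgeR, with 15 at an unadjusted P under 0.05, and 11 by DESeq2. Beyond the genes already given, Krt23 had a change of 1.96 (standard error 0.69) on the log2 scale and an unadjusted P of 0.033. Krt32, of the hair shaft, was at 0, 0.108 and 0.0627 CPM in young rats and 1.03, 0.361 and 0.306 CPM in treated libraries. Without treated libraries 1 and 3, 4 members were called: Krt23 (0.87), Krt76 (0.70) and Lad1 (2.20) higher, and Krt5 lower on no read. With young libraries 1 and 2, which share a label number, summed there were 3 calls, Krt32, Lad1 and Sprr1a. A block on replicate number also left 3 called. Leaving out young library 1 gave 6 calls, and leaving out young library 2 or 3 gave 2. Krt23 and Lad1 were higher than in young libraries in treated library 2 as well. Both genes were also called higher in untreated aged against young RPE/choroid. Treated and young rats differ in age too, so age and treatment cannot be told apart in this comparison.

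The change with age and the change with 8-AG were compared between the tissues with an interaction term in limma, positive where RPE/choroid changed more upward. For age, 25 of 53 members passed the filter; 1 was called higher, Krt19, where 0.858% of the 16792 genes tested were, and 0 lower, where 5.2% were. The Krt19 difference was 1.54 (standard error 0.52) on the log2 scale, from a fall in retina and overlapping groups in RPE/choroid, and was 1.15 without young RPE/choroid library 3, where the call was lost. It had an unadjusted P of 0.014 and a limma adjusted p of 0.4. For 8-AG, 29 of 53 passed the filter and 0 were called, where 0.414% of the 16915 genes tested were higher and 0.804% lower, and 0 had an unadjusted P under 0.05. The total RNA label of treated retina is part of this difference too and cannot be told apart from it. This difference contains the retina values by which the added genes were chosen, and some members passed the filter only through treated libraries, so nothing is read from its counts of calls. The edgeR interaction term called 2, Krt15 and Clca4l, both changing more upward in RPE/choroid. For Krt12 the difference was 1.04 (standard error 4.16), for Krt5 1.03 (standard error 4.51) and for Krt13 0.62 (standard error 2.87), each smaller than its standard error. Without treated RPE/choroid library 2 the tissue test called 8 members, all changing more upward in RPE/choroid. It called 2 more upward without aged RPE/choroid library 3 (Krt8 and Krt18) and 2 more downward without treated RPE/choroid library 1 (Gp2 and Krt17). It called 1 more upward without treated retina library 2 (Krt77) and 1 more downward without aged retina library 3 (Krt17).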

How the data were processed

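The authors deposited RSEM expected counts per gene for the 9 retina libraries and raw read counts per gene for the 9 RPE/choroid libraries. Per the labels, the submitters' processing notes name Bowtie2 2.1.0, RSEM 1.2.15, edgeR and the rat build Rnor_6.0, with no role given. Of the expected counts, 11.5% were not whole, and these were rounded. The authors also deposited a TMM-normalized signal per gene symbol for retina, which served only to pair symbols with identifiers, and tables of their own RPE/choroid comparisons, of which only the column of gene names and identifiers was used. Their fold changes and p-values were not used.

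Identifiers of 32 members came from those gene names, and 3 (Krt14, Krt16 and Krt28) from retina values that matched 1 row of the count table on at least 20 reads. Where both routes gave an identifier they gave the same one for 29 of 29 members. The members and gene lists were chosen with earlier results of these data known. Named were all called members, the 6 added genes, the 10 keratins with the highest level in each tissue and, for each list, up to 3 called genes with the largest change and the 2 with the highest level, besides genes said to be named after their values were seen. A few genes outside this rule carry counts of 5 or fewer.

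Over all genes, the 6 libraries of a comparison were fitted with edgeR 4.0.16 in R 4.3.3: filterByExpr, TMM, estimateDisp, glmQLFit with robust estimation and glmQLFTest, with Benjamini-Hochberg adjustment over all genes tested. The tissue comparison used limma 3.58.1 with quality weights per tissue over 12 libraries. The fits were tested on simulated data. Alternatives were RLE size factors, DESeq2 1.42.0, other filters, 1 fit of all 3 groups, a block on replicate number, each library left out, and RPE/choroid libraries sharing a label number summed. The labels do not say whether libraries sharing a number come from both eyes of a rat, so p-values measure only the spread between these libraries. Figures were made with matplotlib 3.10.9.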

Additional observations from a re-analysis of the deposited data

Results flagged for a closer look

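Krt19 was called, on its unadjusted P, by the test of whether the change with age differed between the 2 tissues. It fell in aged retina and had overlapping groups in aged RPE/choroid, and the difference, RPE/choroid minus retina, was 1.54 on the log2 scale (standard error 0.52). The unadjusted P was 0.014 and the limma adjusted p over all genes 0.4, so the difference does not pass the correction. Outliers within a group were not tested, since each group has 3 libraries.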

How the results depend on the processing

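The number of members called changed by more than 1.5 times as follows. In 8-AG-treated against aged retina, where 11 were called, requiring at least 10 counts in every library left 9 members to test and 1 called. In aged against young RPE/choroid, 4 became 1 with all 3 groups in one fit and 2 with libraries sharing a label number summed. In 8-AG-treated against aged RPE/choroid, 11 became 6 with at least 10 counts in every library, 4 with shared label numbers summed and 1 without treated libraries 1 and 3. Against young RPE/choroid, 15 became 9, 3 and 4 under the same settings. The edgeR interaction term called 3 members for age (Krt19, Gp2 and Krt1) and 2 for 8-AG (Krt15 and Clca4l), where limma called 1 and 0, and 4 for 8-AG without treated libraries 1 and 3. The cause was not tested, except that a higher count minimum tests fewer genes.

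Leaving out 1 library at a time gave 3 to 6 calls for age and 11 to 15 for 8-AG against aged rats in retina. In RPE/choroid it gave 2 to 5 for age, 2 to 15 for 8-AG against aged rats and 2 to 21 for 8-AG against young rats. For the tissue difference it gave 0 to 5 for age and 0 to 8 for 8-AG.

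With the replicate block, 3 members were called for age and 10 for 8-AG against aged rats in retina, and 3 for age, 1 for 8-AG against aged rats and 3 for 8-AG against young rats in RPE/choroid, and for the tissue difference 1 for age and 5 for 8-AG. Deviations of libraries sharing a replicate number across groups correlated at -0.25 to 0.22 in retina and -0.58 to 0.65 in RPE/choroid. Those with different replicate numbers correlated at -0.39 to 0.36 and -0.70 to 0.76. The ranges are wide and overlap, so they cannot decide whether replicate numbers pair the samples. Libraries of 1 group that share a label number were not compared here.

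The fit without treated libraries 1 and 3 was added after the values were seen and rests on treated library 2 alone. In it the sign of the change against aged RPE/choroid turned for Elf3 (-0.036, near 0), Krt7 (-0.35), Krt13 (-0.46), Gp2 (-2.07) and Krt5 (-6.49). Against young RPE/choroid the sign turned for Elf3 (-0.48), Krt7 (-0.35), Krt13 (-0.29), Krt80 (-0.60), Krt4 (-0.42), Clca4l (-1.18) and Krt5 (-6.80). Treated library 2 had no Krt5 read, so both Krt5 values depend on the fit's prior count and are no bound. Depth limits the low retina values, where 1 CPM is 12.3 to 15.6 reads.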
